A study of Homo sapiens with 36 samples.

Results

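Replicative senescence (RS) is the state in which normal fibroblasts stop dividing after many rounds of culture. Here the miRNAs of RS cells were set against those of young proliferating cells (Ctrl), as 2 RS and 2 Ctrl libraries out of the 36 small RNA libraries of the series. All were made from WI-38, a diploid fibroblast strain from normal human lung, and none of these 4 libraries came from cells given a senescence-inducing agent. RS cells had been passaged until they reached replicative exhaustion, so time in culture separates the groups as well as growth arrest, and their effects cannot be told apart. The other 32 libraries came from cells treated with sodium dodecyl sulphate, a detergent that damages the plasma membrane (PMD-Sen), or with doxorubicin, which damages DNA (DDR-Sen). Cells were collected at the end of the treatment, before the agent was washed out, or on days after its removal. Of these, the PMD-Sen and DDR-Sen cells of day 16 (D16), 2 libraries each, were used as the late-senescence groups nearest to RS. The labels call the samples of a group biological replicates without saying whether they came from separate cultures. Unless a fit of fewer libraries is named, p-values measure the spread between such replicate samples, pooled over the 18 conditions of the series. Every one of the 1508 miRNA rows of the count table was considered, of which 360 had enough counts for edgeR's low-count filter.

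A miRNA is a short RNA that guides an Argonaute protein to messenger RNAs, mostly through its seed, the bases 2 to 8 from its 5′ end, and so lowers their translation and stability. Mature miRNAs are cut as a 5p or a 3p arm from hairpins, and several hairpins often lie side by side in one primary transcript, so that a genomic cluster shares a promoter while a seed family shares targets. In fibroblasts the miR-17-92 and miR-106b-25 clusters are known as growth-linked miRNAs that repress CDKN1A and other brakes on the cell cycle. The miR-15/16 family represses cyclins and BCL2, miR-34 is induced by p53, and the maternally expressed miRNAs of the imprinted DLK1-DIO3 region at 14q32 form one of the large miRNA clusters of this genome.

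The sequences that carry the comparison are shown first, 5′ to 3′ as RefSeq lists them for GRCh38.p14, with the seed in capitals. Those of the miR-17 seed family are shown because the 4 tested members with a listed sequence were lower in RS, although they come from separate clusters on chromosome 13 (miR-17-5p at chr13:91350618-91350640, plus strand; miR-20a-5p at chr13:91351072-91351094, plus strand) and chromosome 7 (miR-93-5p at chr7:100093815-100093837, minus strand; miR-106b-5p at chr7:100094043-100094063, minus strand). The same transcripts also hold miR-92a-3p (chr13:91351361-91351382, plus strand, with a further copy on the X chromosome) and miR-25-3p (chr7:100093571-100093592, minus strand), which share another seed.
miR-17-5p: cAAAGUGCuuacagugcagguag
miR-20a-5p: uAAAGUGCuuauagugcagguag
miR-93-5p: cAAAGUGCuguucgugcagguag
miR-106b-5p: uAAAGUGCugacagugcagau
miR-92a-3p: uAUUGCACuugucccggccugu
miR-25-3p: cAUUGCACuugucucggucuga

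The miR-15/16 sequences are shown because their carriers differed in call: miR-15a-5p (chr13:50049167-50049188, minus strand), miR-15b-5p (chr3:160404607-160404628, plus strand) and miR-16-5p (chr3:160404754-160404775, plus strand, with a further copy on chromosome 13) passed as lower in RS, and miR-424-5p (chrX:134546680-134546701, minus strand) did not pass.
miR-15a-5p: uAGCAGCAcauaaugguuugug
miR-15b-5p: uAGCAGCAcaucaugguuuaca
miR-16-5p: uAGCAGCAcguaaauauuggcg
miR-424-5p: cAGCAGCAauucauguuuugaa

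The miR-181 sequences are shown because they share a seed and lay on the higher side in RS. miR-181a-5p (chr1:198859108-198859130, minus strand) and miR-181b-5p (chr1:198858925-198858947, minus strand) each have a further copy on chromosome 9, while miR-181c-5p (chr19:13874725-13874746, plus strand) and miR-181d-5p (chr19:13874910-13874932, plus strand) are neighbours on chromosome 19.
miR-181a-5p: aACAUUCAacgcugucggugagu
miR-181b-5p: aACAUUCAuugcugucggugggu
miR-181c-5p: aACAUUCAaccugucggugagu
miR-181d-5p: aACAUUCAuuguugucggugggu

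The remaining sequences belong to single miRNAs on which a later result turns: miR-155-5p (chr21:25573983-25574006, plus strand, inside MIR155HG), the X-linked pair miR-221-3p (chrX:45746180-45746202, minus strand) and miR-222-3p (chrX:45747036-45747056, minus strand), the 14q32 miRNAs miR-127-3p (chr14:100883035-100883056, plus strand) and miR-433-3p (chr14:100881949-100881970, plus strand), miR-125a-5p (chr19:51693268-51693291, plus strand), miR-23b-3p (chr9:95085265-95085287, plus strand), and both arms of the MIR335 hairpin within MEST (miR-335-5p at chr7:130496126-130496148, plus strand; miR-335-3p at chr7:130496162-130496183, plus strand).
miR-155-5p: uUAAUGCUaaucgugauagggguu
miR-221-3p: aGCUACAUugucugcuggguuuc
miR-222-3p: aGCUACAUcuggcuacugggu
miR-127-3p: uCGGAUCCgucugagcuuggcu
miR-433-3p: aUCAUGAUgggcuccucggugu
miR-125a-5p: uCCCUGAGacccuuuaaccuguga
miR-23b-3p: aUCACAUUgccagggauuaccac
miR-335-5p: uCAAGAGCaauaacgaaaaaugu
miR-335-3p: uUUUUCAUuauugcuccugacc

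Levels are given as CPM, the counts per 1000000 counts of the library total scaled by edgeR's TMM factor. The Ctrl libraries held 223548 and 327354 counts and the RS libraries 413994 and 649167, within the range of 81668 to 1933435 over the series. The RS replicates stood further apart than the Ctrl replicates: 91 of the 360 tested miRNAs differed by more than 2-fold between the RS libraries and 43 between the Ctrl libraries. In counts, the RS pair had the highest chi-square of the 18 replicate pairs, 99.1 per degree of freedom, where counting error alone would give about 1. RS replicate 1 had the higher level of miR-193a-5p (2138 and 557 CPM), miR-320a and miR-423-5p. RS replicate 2 had the higher level of miR-21-5p (46780.4 and 101038 CPM), miR-143-3p and miR-30e-5p.

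The 7 listed fibroblast markers together held 19537 to 73298 counts a library, most of them from miR-21-5p (14150 to 62763). Another of them, miR-199b-5p, had 22 and 51 counts in Ctrl and 0 and 8 in RS. Of the 7, 6 had a negative log2 fold change and 3 were called lower in RS. Of the miRNAs that mark other cell types, the epithelial miR-141-3p, miR-429 and miR-205-5p, the blood miR-223-3p, miR-142-5p and miR-150-5p, the neural miR-124-3p and the muscle miR-206 had 0 counts in all 4 libraries. A count of 0 allows up to 3 counts a library by counting error alone. Other markers of those lists were present: the neural miR-128-3p had 167 and 248 counts in Ctrl and 278 and 398 in RS, the liver miR-122-5p 23 and 5 in Ctrl and 71 and 4 in RS, and the muscle miR-1-3p 1 and 3 in Ctrl and 0 and 24 in RS. None of these 3 passed between RS and Ctrl. The epithelial miR-200c-3p had 16 and 8 counts in Ctrl and 26 and 12 in RS and did not pass either. The blood miR-486-5p had 47 and 68 counts in Ctrl and 439 and 309 in RS and was called higher in RS. So was the endothelial miR-126-3p, with 10 and 15 counts in Ctrl and 49 and 119 in RS. In bulk RNA, fewer cells of a type and less RNA per cell cannot be told apart.

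RS cells and young cells differed in both directions. At a Benjamini-Hochberg adjusted p below 0.05 in edgeR's quasi-likelihood test, 37 of the 360 miRNAs were higher in RS (10.3%) and 44 were lower (12.2%), together 22.5%. In each of these 81 cases both RS libraries lay beyond both Ctrl libraries, a separation seen in 101 tested miRNAs on the higher side (28.1%) and 98 on the lower side (27.2%). The lower miRNAs included the growth-linked clusters, miR-155-5p, miR-221, miR-222 and the miR-15/16 family. Among the higher ones were miR-181a-5p, miR-125a-5p, the miR-23b cluster and 14 miRNAs of 14q32. At the thresholds the study used, an unadjusted p below 0.05 with a change of more than 2-fold, 32 miRNAs were higher (8.89%) and 48 lower (13.3%), and with library totals in place of TMM the split was 19 higher and 52 lower. The median log2 fold change over all 360 was 0.12 with TMM and 0.01 with totals. The spread behind these tests was estimated from all 36 libraries. In edgeR on only the 4 libraries, 15 of the 37 higher and 30 of the 44 lower calls were kept.

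**Figure D1:**
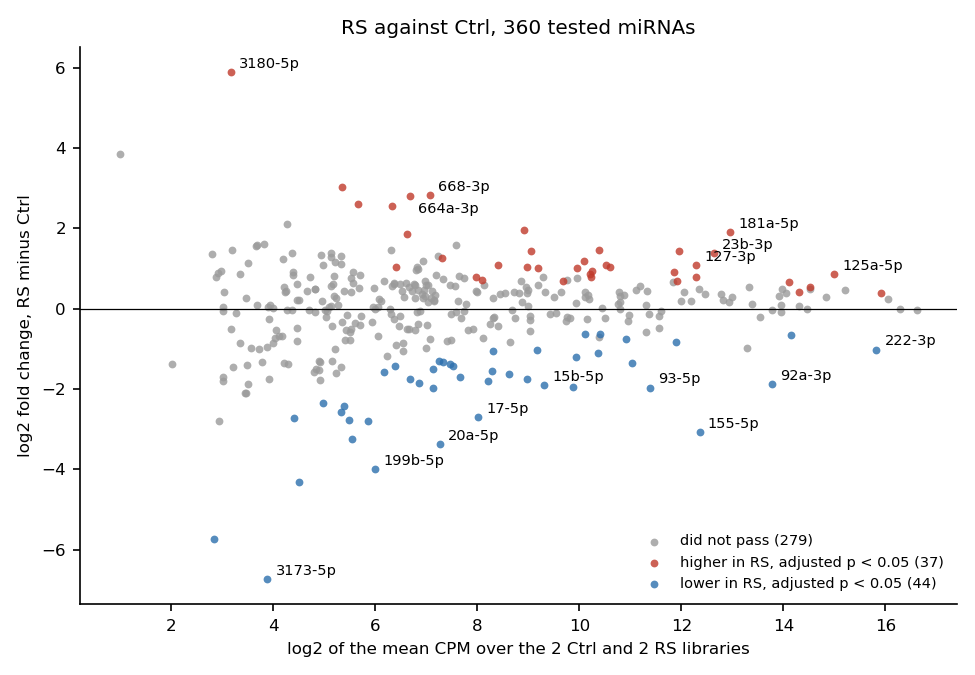
Log2 fold change of RS over Ctrl (vertical axis) against the log2 of the mean CPM over the 4 libraries (horizontal axis) for the 360 tested miRNAs, with the 37 higher and 44 lower miRNAs at adjusted p below 0.05 in red and blue. miR-155-5p, miR-93-5p and miR-92a-3p stand out below the others at high abundance, and miR-181a-5p above them.

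The lower calls were the more stable. Of the 44 lower miRNAs, 27 still passed when each of the 4 libraries was left out in turn and 20 passed under every alternative that tested them, compared with 10 and 9 of the 37 higher miRNAs. The 20 comprised miR-155-5p, miR-222-3p, miR-145-5p, miR-7-5p, miR-29b-1-5p, miR-15b-5p, miR-16-5p, 7 miRNAs of the miR-17-92 and miR-106b-25 clusters, and miR-505-3p, miR-130b-5p, miR-484, miR-3173-5p, miR-625-3p and miR-629-5p. The 9 were miR-181a-5p, miR-181c-5p, miR-23b-3p, miR-125a-5p, miR-127-3p, miR-433-3p, miR-668-3p, miR-664a-3p and miR-486-5p. Fewer higher miRNAs passed without Ctrl replicate 1 (23), Ctrl replicate 2 (20) or RS replicate 2 (24). All 81 kept their sign in each of these fits, which says little, since both RS libraries lay beyond both Ctrl libraries in all 81.

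The miR-17-92 and miR-106b-25 clusters lay on the lower side as a group. miR-17-92 is transcribed from MIR17HG on chromosome 13, where its hairpins span 787 nt, and miR-106b-25 lies within MCM7, a gene for a subunit of the replicative helicase. Over all 360 tested miRNAs, 27.2% had both RS libraries below both Ctrl libraries and 12.2% fell at adjusted p. All 13 tested members of both clusters had a lower level in both RS libraries than in both Ctrl libraries, and 10 of them fell at adjusted p, 6 of 7 in miR-17-92 and 4 of 6 in miR-106b-25. Their median log2 fold change was -1.97, compared with 0.12 for all tested miRNAs. Summed over the 13, the level was 28453 ± 1316 CPM in Ctrl and 7639 ± 1683 CPM in RS (mean ± SD, n = 2 libraries each), 3.72-fold lower in RS. Leaving out any single library left 9 of the 13 passing.

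Within these clusters miR-92a-3p made up most of the reads. Its levels were 20986 and 22802 CPM in Ctrl and 7164 and 4836 CPM in RS, a log2 fold change of -1.87 (SE 0.23, adjusted p = 4.28e-07). miR-17-5p, which represses the cell cycle inhibitor CDKN1A, had 387 and 509 CPM in Ctrl and 85.9 and 54.7 CPM in RS, a log2 fold change of -2.70 (SE 0.35, adjusted p = 8.93e-07). Neither miRNA overlapped between the groups. miR-20a-5p, with the seed of miR-17-5p, had 215 and 346 CPM in Ctrl and 28.6 and 25.8 CPM in RS, a log2 fold change of -3.37 (SE 0.40, adjusted p = 1.88e-07). miR-18a-5p was nearly absent from RS, with 11 and 14 counts in Ctrl and 0 and 2 counts in RS, a 22.3-fold lower share of counts (95% counting interval 5.57 to 194). miR-19b-3p had 10 and 18 counts in Ctrl and 2 and 13 counts in RS and did not pass (log2 fold change -1.77, SE 0.78, adjusted p = 0.106).

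miR-93-5p was the most abundant member of the MCM7 cluster, and its RS replicates were close. It had 4353 and 4162 CPM in Ctrl and 1128 and 1051 CPM in RS, a log2 fold change of -1.97 (SE 0.17, adjusted p = 4.94e-10). miR-25-3p, with the seed of miR-92a-3p, had 791 and 755 CPM in Ctrl and 217 and 239.9 CPM in RS, a log2 fold change of -1.75 (SE 0.26, adjusted p = 8.46e-06). Both separated the groups by more than the replicates of either differed. miR-106b-5p had 223 and 226 CPM in Ctrl and 26.2 and 83.7 CPM in RS and a log2 fold change of -1.97 (SE 0.47, adjusted p = 0.00176), with the RS libraries themselves more than 2-fold apart, and its other arm miR-106b-3p fell by 1.44 on the log2 scale. The 4 listed miRNAs that come only from the third relative of these clusters, miR-106a-363 on the X chromosome, were below the low-count filter, while miR-92a-3p and miR-19b-3p can come from it as well as from MIR17HG.

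By seed, all 4 tested carriers of AAAGUGC with a listed sequence (miR-17-5p, miR-20a-5p, miR-93-5p and miR-106b-5p) fell, with a median log2 fold change of -2.33. Of the 3 such carriers of AUUGCAC, miR-92a-3p and miR-25-3p fell, and miR-92b-3p, encoded apart from both clusters on chromosome 1, had a log2 fold change of -0.18 (SE 0.31, adjusted p = 0.703). Seeds could be read for the 329 of the 360 tested rows that matched a RefSeq sequence.

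The miR-15/16 family, which represses cyclins and BCL2, fell in all 3 tested members, beside 12.2% of all 360 tested miRNAs. miR-15b-5p, within the condensin gene SMC4 on chromosome 3, had 958 and 1033 CPM in Ctrl and 260.1 and 272 CPM in RS, a log2 fold change of -1.90 (SE 0.30, adjusted p = 1.54e-05). miR-16-5p, which is made from the SMC4 cluster and from DLEU2 on chromosome 13, had 2896 and 3118 CPM in Ctrl and 1209.6 and 1162 CPM in RS, a log2 fold change of -1.34 (SE 0.26, adjusted p = 0.000237). The DLEU2 miRNA miR-15a-5p had 81.6 and 120.1 CPM in Ctrl and 16.7 and 12.9 CPM in RS, a log2 fold change of -2.79 (SE 0.61, adjusted p = 0.00102). In all 3 the RS libraries lay below both Ctrl libraries and close to each other. miR-16-2-3p, the passenger arm that only the SMC4 cluster encodes, had 27 and 19 counts in Ctrl and 2 and 7 counts in RS and a log2 fold change of -3.25 (SE 0.71, adjusted p = 0.000924). Limma voom did not call miR-15a-5p or miR-16-2-3p. miR-424-5p, with the same seed but from the cluster of miR-424 and miR-503, had 215 and 212 CPM in Ctrl and 109.7 and 346 CPM in RS, and its RS libraries lay on either side of Ctrl (log2 fold change 0.12, SE 0.43, adjusted p = 0.873).

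miR-155-5p, a miRNA of inflammatory signalling made from MIR155HG, showed the clearest fall of any abundant miRNA outside those clusters. It had 8830.3 and 9908 CPM in Ctrl and 1589 and 634 CPM in RS, a log2 fold change of -3.08 (SE 0.27, adjusted p = 4.94e-10). Both RS libraries were far under Ctrl, but they differed from each other by more than 2-fold, and with 1 library left out in turn the log2 fold change ranged from -3.88 to -2.70. The inflammation-linked miR-146b-5p went the other way, with 756 and 901 CPM in Ctrl and 1472 and 1703 CPM in RS (log2 fold change 0.94, SE 0.29, adjusted p = 0.0196). This call was lost without Ctrl replicate 1, Ctrl replicate 2 or RS replicate 2, with limma voom and with only the 4 libraries. miR-146a-5p, best known as an NF-κB target in senescent fibroblasts, was scarce, with 11 and 13 counts in Ctrl and 10 and 7 counts in RS, and did not pass (log2 fold change -1.29, SE 0.61, adjusted p = 0.124).

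miR-221 and miR-222, repressors of the cell cycle inhibitor CDKN1B, are made together from MIR222HG on the X chromosome. All 4 of their tested arms fell, beside 12.2% of all 360 tested miRNAs. miR-222-3p was the third most abundant miRNA in Ctrl and the seventh in RS, with 70088 and 84869.5 CPM in Ctrl and 41257 and 35148 CPM in RS, a log2 fold change of -1.02 (SE 0.16, adjusted p = 1.48e-05). miR-221-3p had 19559.8 and 24836 CPM in Ctrl and 13088 and 14875 CPM in RS, a log2 fold change of -0.67 (SE 0.16, adjusted p = 0.00179). Both were below Ctrl in each RS library. Only miR-222-3p passed in a fit of the 4 libraries alone, which did not test miR-222-5p. Without Ctrl replicate 2, 1 of the 4 arms passed, and without RS replicate 1, 2 did.

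Mesenchymal clusters also fell in part. Beside 12.2% of all 360 tested miRNAs, 2 of 4 tested members of the miR-143 and miR-145 cluster and 2 of 5 of the miR-199 and miR-214 list were lower at adjusted p. With limma voom, 0 of the 5 were, and 2 were at an unadjusted p below 0.05. miR-145-5p, a regulator of smooth muscle and myofibroblast genes encoded in CARMN, had 1388 and 1341 CPM in Ctrl and 458 and 724 CPM in RS, a log2 fold change of -1.20 (SE 0.24, adjusted p = 0.000268). Its far more abundant neighbour miR-143-3p had 12835 and 13618 CPM in Ctrl and 3221 and 10150.0 CPM in RS and did not pass (log2 fold change -0.98, SE 0.37, adjusted p = 0.0547), with RS replicate 2 at about 3 times RS replicate 1. miR-199b-5p had 22 and 51 counts in Ctrl and 0 and 8 counts in RS, a log2 fold change of -3.99 (SE 0.75, adjusted p = 0.000207) that ranged from -8.72 to -3.21 with 1 library left out and was called under every alternative except limma voom. The joined row miR-199a-3p and miR-199b-3p fell by 0.83 on the log2 scale (SE 0.30, adjusted p = 0.0434), a call lost without Ctrl replicate 1, Ctrl replicate 2 or RS replicate 1, while miR-214-3p (-0.58) and miR-199a-5p (-0.31) did not pass. Of the family of miR-130, miR-301 and miR-454, miR-130b-5p fell, with 288 and 329 CPM in Ctrl and 105 and 86.9 CPM in RS, a log2 fold change of -1.69 (SE 0.28, adjusted p = 2.99e-05), as did miR-454-3p from SKA2, a gene for a spindle and kinetochore protein (log2 fold change -1.05, SE 0.32, adjusted p = 0.0146). The call of miR-454-3p was lost without Ctrl replicate 2, without RS replicate 1 and with only the 4 libraries. miR-130b-5p has another seed than the family, and miR-130b-3p from the same hairpin did not pass (log2 fold change -0.39, SE 0.37, adjusted p = 0.468). In counts, miR-130b-5p had 67 and 115 in Ctrl and 44 and 54 in RS. miR-130b-3p had 39 and 33 in Ctrl and 44 and 57 in RS. miR-130a-3p had the opposite sign and did not pass (log2 fold change 1.00, SE 0.50, adjusted p = 0.158). Of the miR-28, miR-151 and miR-708 family, 1 of 6 tested members fell, beside 12.2% of all 360 tested miRNAs. It was miR-28-3p (-0.63), a call lost without Ctrl replicate 2 and without RS replicate 2.

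Outside the lists, miR-7-5p, a repressor of EGFR signalling with copies in HNRNPK and elsewhere, had 1207 and 1782 CPM in Ctrl and 317 and 452 CPM in RS, a log2 fold change of -1.95 (SE 0.38, adjusted p = 0.000237). miR-505-3p had 443 and 495 CPM in Ctrl and 153 and 166 CPM in RS, a log2 fold change of -1.56 (SE 0.24, adjusted p = 1.54e-05). miR-484, which sits at the start of NDE1, had 1659 and 1945 CPM in Ctrl and 935 and 731 CPM in RS, a log2 fold change of -1.12 (SE 0.19, adjusted p = 3.92e-05). These 3 passed under every alternative tried. The 14 lower miRNAs outside the lists also included miR-425-5p (log2 fold change -0.75, SE 0.18, adjusted p = 0.00176), miR-625-3p (-1.74) and miR-629-5p (-1.84). The largest fitted falls had very low counts: miR-3173-5p, within DICER1, had 5 and 13 counts in Ctrl and 0 and 0 counts in RS and was at least 4.90-fold lower against a floor of 3 counts over the RS libraries, and miR-128-1-5p had 2 and 7 counts in Ctrl and 0 and 0 counts in RS, at least 2.39-fold lower. The call of miR-128-1-5p was lost without Ctrl replicate 2, RS replicate 1 or RS replicate 2.

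**Figure D2:**
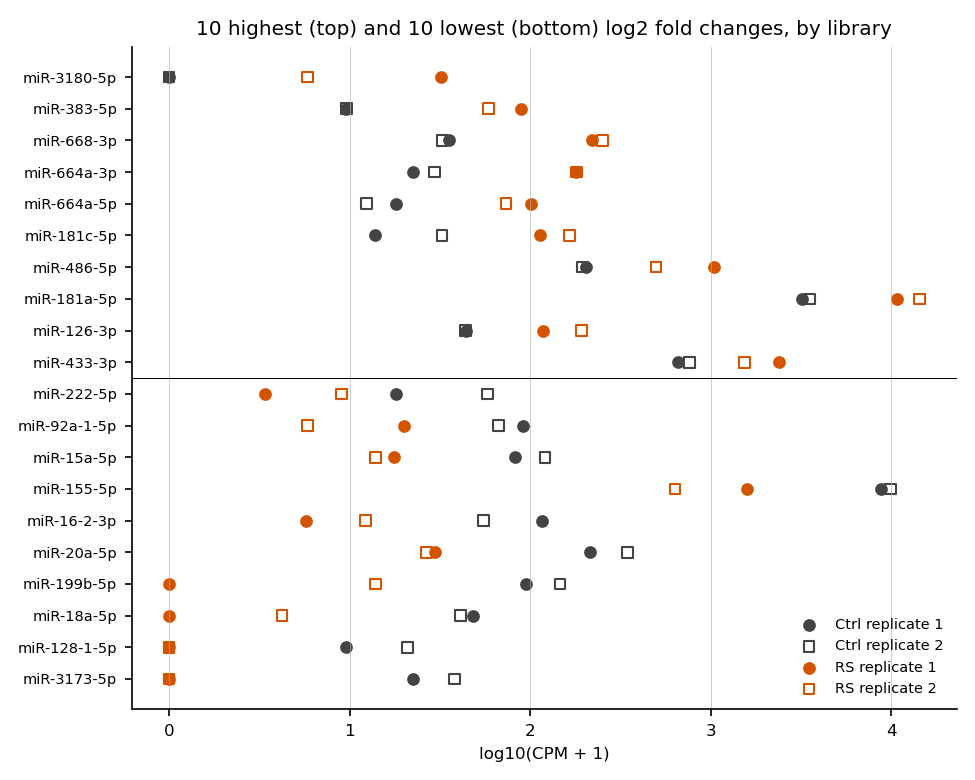
Level of the 10 miRNAs with the highest and the 10 with the lowest log2 fold change among those at adjusted p below 0.05, as log10(CPM + 1) on the horizontal axis, with 1 symbol for each Ctrl and RS library. The 20 were chosen among miRNAs with both RS libraries beyond both Ctrl libraries, so the separation seen here follows from the choice. miR-155-5p and miR-181a-5p are the most abundant.

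On the higher side, 3 of 6 tested miR-181 family members rose, beside 10.3% of all 360 tested miRNAs. This family is known for setting the sensitivity of T cell receptor signalling, and its members share the seed ACAUUCA. miR-181a-5p had 3197 and 3541 CPM in Ctrl and 10793 and 14386 CPM in RS, a log2 fold change of 1.90 (SE 0.18, adjusted p = 2.05e-09), and miR-181b-5p had 2913 and 2992 CPM in Ctrl and 5125 and 4347 CPM in RS, a log2 fold change of 0.68 (SE 0.18, adjusted p = 0.00616). Both come from the same clusters on chromosomes 1 and 9, and the call of miR-181b-5p was lost without Ctrl replicate 1, without RS replicate 1 and with only the 4 libraries. miR-181c-5p rose from low counts, with 3 and 11 counts in Ctrl and 47 and 102 counts in RS (log2 fold change 2.56, SE 0.58, adjusted p = 0.00124). miR-181d-5p, its neighbour within NANOS3 on chromosome 19, had 26 and 38 counts in Ctrl and 50 and 91 counts in RS and did not pass (log2 fold change 0.28, SE 0.35, adjusted p = 0.602). The passenger arms miR-181a-2-3p (0.43) and miR-181a-3p (-0.21) did not pass either. Summed over the 6 tested members, the level was 6606 ± 349 CPM in Ctrl and 17785 ± 2091 CPM in RS (mean ± SD, n = 2 libraries each), 2.69-fold higher in RS.

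Of 10 tested members of the miR-23/27/24 clusters, known from vascular gene regulation, 3 rose and 1 fell, beside 10.3% and 12.2% of all 360 tested miRNAs. miR-23b-3p and miR-27b-3p from the copy on chromosome 9, within AOPEP, were among those that rose. miR-23b-3p had 3059 and 4030.1 CPM in Ctrl and 7186 and 11198 CPM in RS, a log2 fold change of 1.37 (SE 0.21, adjusted p = 1.32e-05). miR-27b-3p had 1951 and 2334 CPM in Ctrl and 3951 and 7634 CPM in RS, a log2 fold change of 1.43 (SE 0.28, adjusted p = 0.000256). Their paralogs from chromosome 19, miR-23a-3p and miR-27a-3p, had log2 fold changes of 0.08 and 0.17 and did not pass. The counts of such near-identical miRNAs include reads split between them. miR-24-3p, made by both clusters, had a log2 fold change of 0.55 (SE 0.20, adjusted p = 0.0473), a call lost under 8 of the 10 alternatives that kept all 4 libraries. Without RS replicate 2, miR-27b-3p had a log2 fold change of 0.74 and only miR-23b-3p of these 3 still passed.

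Of 9 tested members of the miR-99, miR-100 and miR-125 families, 2 rose, beside 10.3% of all 360 tested miRNAs. miR-125a-5p, the mammalian relative of the worm timing gene lin-4, was among the most abundant miRNAs to rise. It had 22851 and 23783 CPM in Ctrl and 47222 and 37132 CPM in RS, a log2 fold change of 0.85 (SE 0.19, adjusted p = 0.000924). miR-125b-5p, with the same seed, had 53046 and 52986 CPM in Ctrl and 71686 and 67795 CPM in RS (log2 fold change 0.40, SE 0.13, adjusted p = 0.0316), a call that was lost with DESeq2 size factors, with totals and without any one of the 4 libraries. miR-99b-5p, from the same cluster as miR-125a-5p, had a log2 fold change of 0.40 (SE 0.21, adjusted p = 0.172), and the highly abundant miR-100-5p one of -0.02 (SE 0.17, adjusted p = 0.966).

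The 14q32 miRNAs lay on the higher side as a group. Over all 360 tested miRNAs, 197 had a positive log2 fold change and 101 (28.1%) had both RS libraries above both Ctrl libraries. At adjusted p, 37 of the 360 rose (10.3%) and 44 fell (12.2%). Of the 68 tested at 14q32, 58 had a positive log2 fold change and 38 had both RS libraries above both Ctrl libraries. Of the same 68, 14 rose and 0 fell at adjusted p, and 1, miR-299-3p, was lower at the study's thresholds. DESeq2 on all libraries and limma voom also called 0 lower, and at an unadjusted p edgeR and DESeq2 each had 1 lower and voom 0. Their median log2 fold change was 0.52, compared with 0.12 for all tested miRNAs, and their summed level was 65628 ± 2668 CPM in Ctrl and 97033 ± 1122 CPM in RS (mean ± SD, n = 2 libraries each), 1.48-fold higher in RS. The median was 0.42 with library totals and 0.20 without RS replicate 2, beside 0.01 and -0.04 for all tested miRNAs in the same fits. Without Ctrl replicate 2, and likewise without RS replicate 2, 9 of the 68 passed, and 5 of 63 passed when only the 4 libraries were fitted.

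Calls lay at both ends of the locus. In the proximal group, which holds the miRNAs antisense to the retrotransposon-derived gene RTL1, miR-127-3p had 2913 and 3504 CPM in Ctrl and 6489 and 7148 CPM in RS, a log2 fold change of 1.09 (SE 0.17, adjusted p = 1.60e-05). miR-433-3p had 657 and 767 CPM in Ctrl and 2386 and 1542 CPM in RS, a log2 fold change of 1.46 (SE 0.29, adjusted p = 0.000268). Neither overlapped between groups, and both passed under every alternative. In the distal group, from MIR379 to MIR656 over 44736 nt next to MEG8 and MEG9, 12 of 52 rose. Of these, miR-668-3p had 8 and 11 counts in Ctrl and 92 and 156 counts in RS (log2 fold change 2.84, SE 0.51, adjusted p = 0.000133) and miR-494-3p had 3859 and 3472 CPM in Ctrl and 5406 and 7278 CPM in RS (log2 fold change 0.79, SE 0.19, adjusted p = 0.00179). The call of miR-494-3p was lost without RS replicate 2, at a log2 fold change of 0.42, and with only the 4 libraries. The most abundant 14q32 miRNA, miR-409-3p, had 14678 and 12216 CPM in Ctrl and 20880.3 and 16673 CPM in RS, above Ctrl in both RS libraries without passing (log2 fold change 0.48, SE 0.20, adjusted p = 0.0770). The abundant miR-382-5p (-0.07), miR-485-3p (-0.02) and miR-543 (0.09) had log2 fold changes near 0, and in all 3 the libraries of the groups overlapped.

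**Figure D3:**
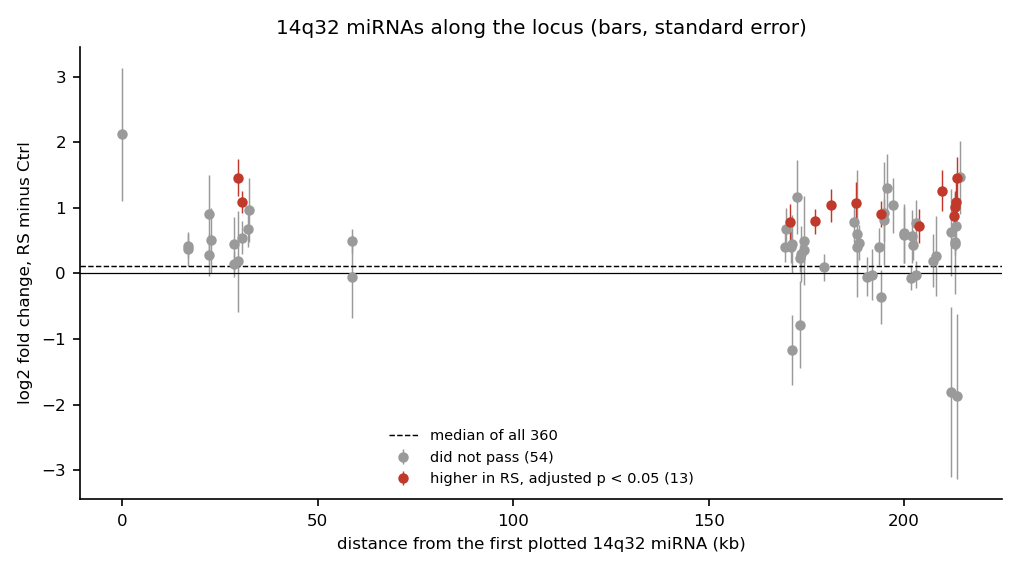
Log2 fold change of RS over Ctrl (vertical axis, bars show the standard error) for the 14q32 miRNAs with a RefSeq position, against the distance in kb from the first one (horizontal axis), with those higher at adjusted p below 0.05 in red. Red points occur in the proximal group and along the whole distal group, among neighbours near the dashed line, the median of all 360 tested miRNAs at 0.12.

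Both arms of MIR664A, a hairpin within RAB3GAP2 that overlaps a small nucleolar RNA, rose: miR-664a-3p had 21.5 and 28.6 CPM in Ctrl and 179 and 180.3 CPM in RS, a log2 fold change of 2.80 (SE 0.54, adjusted p = 0.000237), and miR-664a-5p had 4 and 4 counts in Ctrl and 42 and 45 counts in RS, a log2 fold change of 2.60 (SE 0.61, adjusted p = 0.00156). The call of miR-664a-5p was lost without Ctrl replicate 2, and its log2 fold change ranged from 2.30 to 2.88 with 1 library left out. The list of miRNAs resembling snoRNA or tRNA fragments was mixed, since miR-4286 fell by 2.42 on the log2 scale (20 and 20 counts in Ctrl and 2 and 12 counts in RS) and miR-1260b did not pass (-0.13). miR-486-5p, an erythroid and muscle miRNA, had 202 and 194 CPM in Ctrl and 1047 and 497 CPM in RS, a log2 fold change of 1.96 (SE 0.39, adjusted p = 0.000304). Of the 5 blood markers in the table it was the only one with more than 1 count in a library, and the red cell marker miR-451a had 1 and 0 counts in Ctrl and 0 and 0 in RS. The 5 together held 48 and 68 counts in Ctrl and 439 and 309 in RS.

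Among the higher miRNAs outside the lists, miR-126-3p, the endothelial miRNA of EGFL7, had 10 and 15 counts in Ctrl and 49 and 119 counts in RS, a log2 fold change of 1.85 (SE 0.41, adjusted p = 0.00111), and its call was lost without RS replicate 2 (log2 fold change 1.30). Its partner miR-126-5p, the other endothelial marker, had 3 and 0 counts in Ctrl and 1 and 5 in RS and was below the filter. The part of endothelial RNA in the value of miR-126-3p was not tested. miR-383-5p had 2 and 3 counts in Ctrl and 37 and 36 counts in RS, an 8.18-fold higher share of counts in RS (95% counting interval 3.35 to 25.9). miR-3180-5p had 0 and 0 counts in Ctrl and 13 and 3 counts in RS, at least 1.67-fold higher than a floor of 3 counts over the Ctrl libraries. The calls of miR-383-5p and miR-3180-5p were lost without Ctrl replicate 1, Ctrl replicate 2 or RS replicate 1. miR-103a-3p and miR-107, which lie in pantothenate kinase genes and differ near their 3′ ends, had log2 fold changes of 0.41 (SE 0.14, adjusted p = 0.0391) and 0.79 (SE 0.28, adjusted p = 0.0391), and both calls were lost with DESeq2 size factors or totals and with only the 4 libraries.

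Several groups known from senescence or from fibroblasts gave no call, beside 22.5% of all 360 tested miRNAs called in either direction. In a list this short, 0 calls says little about the group. The 9 mature let-7 family members, repressors of RAS, MYC and HMGA2, had log2 fold changes of -0.04 to 0.55, and 0 passed in edgeR, DESeq2 or limma voom at adjusted p, and 1 did at an unadjusted p below 0.05 in edgeR and 0 in the other tools. let-7a-5p was the most abundant miRNA in both groups, with 119967 and 84732 CPM in Ctrl and 97306 and 101809 CPM in RS, values that overlapped. Of the p53-induced miRNAs, miR-34a-5p had 352 and 352 CPM in Ctrl and 444 and 697 CPM in RS and a log2 fold change of 0.70 (SE 0.27, adjusted p = 0.0622), above Ctrl in both RS libraries, and miR-34c-5p one of 0.52 (SE 0.52, adjusted p = 0.493). None of the 6 tested members of that list passed in the 3 tools at adjusted p, and 1 did at an unadjusted p in edgeR and in DESeq2 and 0 in voom.

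miR-21-5p, the fibrosis-linked miRNA, had 60802 and 64610.3 CPM in Ctrl and 46780.4 and 101038 CPM in RS, so the RS libraries lay on either side of Ctrl (log2 fold change 0.24, SE 0.34, adjusted p = 0.637). In the cluster of miR-424 and miR-503, miR-542-3p had 85.9 and 106 CPM in Ctrl and 109.7 and 462 CPM in RS (log2 fold change 1.58, SE 0.61, adjusted p = 0.0576) above Ctrl in both. Of its 7 tested members 0 passed at adjusted p in the 3 tools, with 2 at an unadjusted p in edgeR and 1 in each of the others. In the miR-30 family, miR-30a-5p alone of 8 passed, with 13342 and 13941 CPM in Ctrl and 15219 and 28082 CPM in RS (log2 fold change 0.67, SE 0.23, adjusted p = 0.0391), and its log2 fold change was 0.02 without RS replicate 2. Of the X-linked cluster of miR-532, miR-500 and miR-660 (9 tested), the miR-320 family (3) and the clusters of miR-193 and miR-365 (6), 0 passed in the 3 tools at adjusted p. At an unadjusted p, 1 member of the miR-193 and miR-365 clusters did in limma voom and 0 in the other tools. Without RS replicate 1, 2 members of those clusters and 1 of the miR-320 family were called lower, 2 of the 7 in the miR-424 cluster higher and 1 of the 6 p53-induced miRNAs higher. Without RS replicate 2, 1 of the 9 in the miR-532 cluster was called higher.

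**Figure D4:**
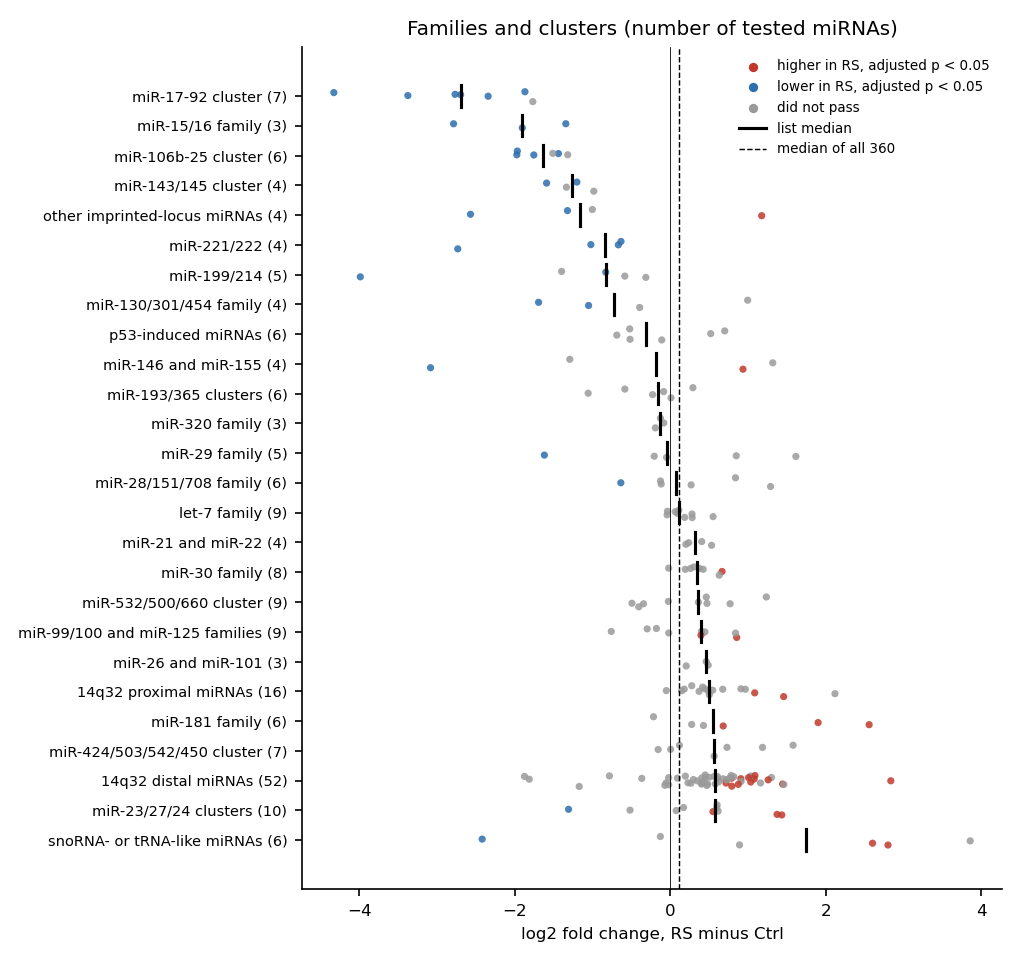
Log2 fold change of RS over Ctrl (horizontal axis) for the tested members of each family or cluster with at least 3, 1 point per miRNA with its number of members in parentheses, black bars for the medians and a dashed line for the median of all 360. The medians of miR-17-92 (-2.70), miR-15/16 (-1.90) and miR-106b-25 (-1.63) lie farthest to the left. Among lists with at least 3 tested members, that of miRNAs resembling snoRNA or tRNA fragments had the highest median (1.75). The 14q32 and miR-181 lists lie to the right of the dashed line with medians between 0.50 and 0.57. The list of miR-23, miR-27 and miR-24 (0.57) and the miR-424 cluster (0.57) have similar medians. The miR-424 cluster had 0 calls among 7 tested members at adjusted p.

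The arms of a hairpin did not always move together. Of 76 hairpins with both arms tested and each arm listed at 1 locus, 52 had the same sign in both, 24 had 1 arm called and 6 had both called. The called pairs went the same way in 5 hairpins (MIR106B, MIR145, MIR18A, MIR222 and MIR664A) and in opposite directions in MIR335, which lies in the imprinted gene MEST. miR-335-5p had 636 and 712 CPM in Ctrl and 787 and 2254 CPM in RS (log2 fold change 1.18, SE 0.31, adjusted p = 0.00551), while miR-335-3p had 142 and 317 CPM in Ctrl and 57.3 and 126 CPM in RS (log2 fold change -1.32, SE 0.43, adjusted p = 0.0226). The calls of both MIR335 arms were lost when only the 4 libraries were fitted. Their ratio of 5p to 3p counts was 4.48 and 2.24 in Ctrl and 13.8 and 17.9 in RS, without overlap. Both arms depended on single libraries. The log2 fold change of miR-335-5p was 0.08 without RS replicate 2, and its call was also lost without Ctrl replicate 1. That of miR-335-3p ranged from -2.16 to -0.60 with 1 library left out, and its call was lost without Ctrl replicate 2, without RS replicate 1 and with limma voom. Another imprinted miRNA, miR-296-3p, had a log2 fold change of -2.57 (SE 0.61, adjusted p = 0.00176).

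In the miR-29 family, miR-29b-1-5p, an arm of MIR29B1, had 653 and 532 CPM in Ctrl and 269.6 and 121 CPM in RS, a log2 fold change of -1.62 (SE 0.31, adjusted p = 0.000256), the only call among 5 tested miR-29 family members, and the matrix-regulating miR-29b-3p, which is made from MIR29B1 and a further locus, one of 0.85 (SE 0.57, adjusted p = 0.314). miR-27a-5p fell (log2 fold change -1.31, SE 0.41, adjusted p = 0.0202), a call lost without Ctrl replicate 1 and without RS replicate 1, beside a miR-27a-3p that did not pass. At MIR125A the ratio of 5p to 3p counts was 116 and 170 in Ctrl and 449.8 and 398 in RS, with miR-125a-3p at a log2 fold change of -0.76 (SE 0.33, adjusted p = 0.106).

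The most abundant miRNAs were largely shared. The 10 most abundant miRNAs held 50.7% to 54.5% of the counts of the 4 libraries, and 8 miRNAs were in the top 10 of both groups: let-7a-5p, miR-100-5p, miR-222-3p, miR-21-5p, miR-125b-5p, miR-10a-5p, let-7f-5p and miR-125a-5p. miR-30d-5p and miR-221-3p were in the top 10 of Ctrl, and miR-24-3p and miR-26a-5p in that of RS. The lists of miR-21 and miR-22, of miR-26 and miR-101, of miR-148 and miR-152, of HOX cluster miRNAs and of miR-31 had 12 tested members and 0 calls at adjusted p in the 3 tools, with miR-10a-5p and miR-26a-5p at an unadjusted p in each. In edgeR, 22.5% of all 360 tested miRNAs were called. Without RS replicate 1, 2 of the 3 tested miR-26 and miR-101 members and 1 of the 4 of miR-21 and miR-22 were called higher, and with the replicate number as a block 1 miR-26 or miR-101 and 1 HOX cluster member were. miR-10a-5p, encoded in a HOX cluster, had 33916 and 30058 CPM in Ctrl and 44447 and 43738 CPM in RS, higher in both RS libraries without passing (log2 fold change 0.46, SE 0.18, adjusted p = 0.0568). Of the 12 miRNAs in either list, miR-222-3p and miR-221-3p fell and miR-125a-5p, miR-125b-5p and miR-24-3p rose.

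Set against the other 34 libraries, RS stood at the end of the range for 24 of the 360 tested miRNAs. Both RS libraries were above all others in 10 of the 360 and below all others in 14. The 10 were miR-181a-5p, miR-181b-5p, miR-181c-5p, miR-125a-5p, miR-433-3p, miR-185-5p, miR-539-5p, miR-377-5p, miR-668-3p and miR-383-5p. Among the 14 were miR-222-3p, miR-221-3p, miR-93-5p, miR-25-3p, miR-20a-5p, miR-15a-5p, miR-15b-5p, miR-484 and miR-505-3p. The means of the other 17 conditions ran from 3363 to 6163 CPM for miR-181a-5p and from 1744 to 4249 CPM for miR-93-5p, with RS at 12589 and 1089.8 CPM. For miR-155-5p RS was not at the end, since the lowest mean of another condition was 881 CPM and that of RS was 1112 CPM.

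**Figure D5:**
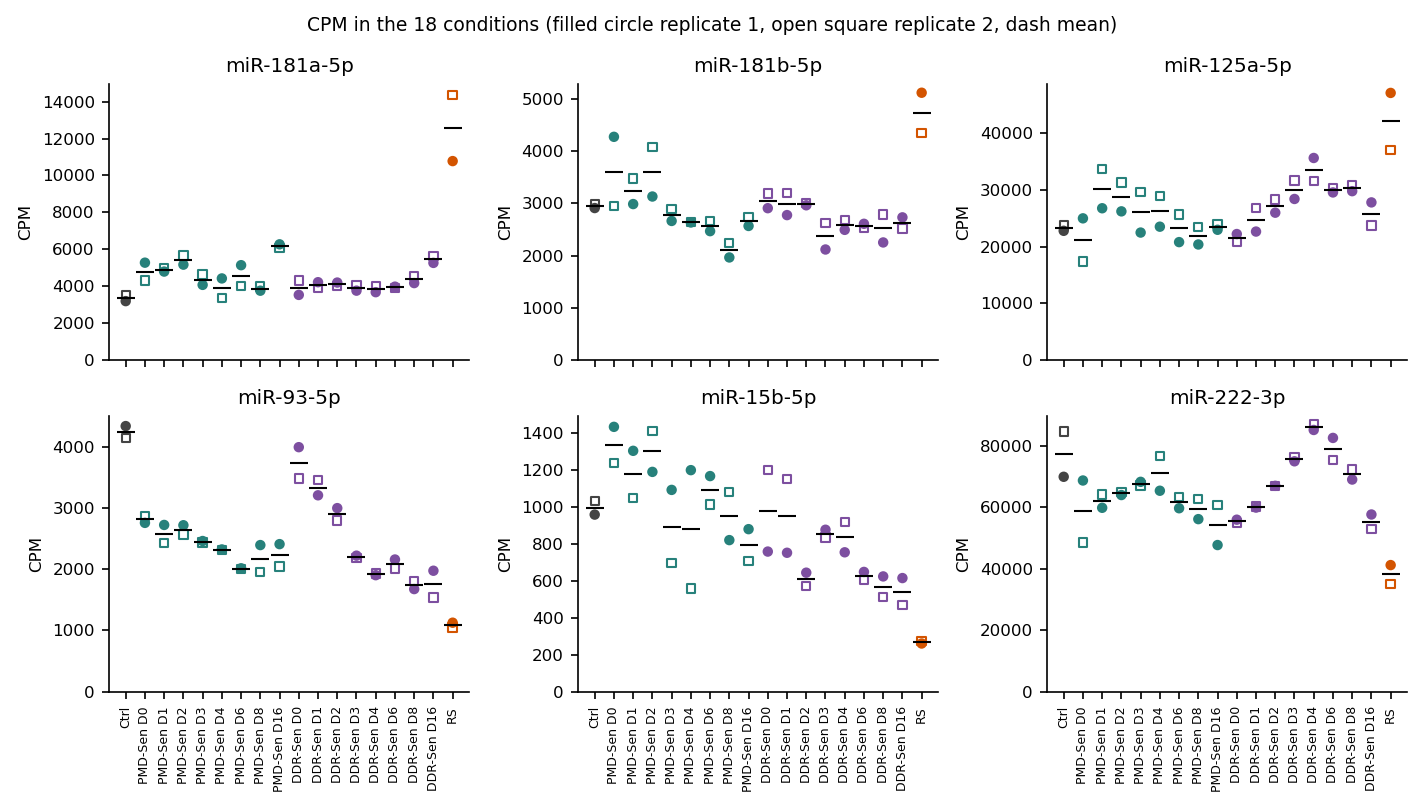
CPM of 6 miRNAs (vertical axes, from 0) in the 18 conditions (horizontal axes), with a filled circle for replicate 1, an open square for replicate 2 and a dash for the mean, Ctrl in grey, PMD-Sen in green, DDR-Sen in purple and RS in orange. Both RS libraries lie above all others for miR-181a-5p, miR-181b-5p and miR-125a-5p and below all others for miR-93-5p, miR-15b-5p and miR-222-3p.

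Direct comparison with the late-senescence groups asked whether RS differed from other late senescence. The 2 comparisons share the RS libraries, so each miRNA's values are given side by side. Against PMD-Sen D16, edgeR called 11 miRNAs higher (3.06%) and 22 lower (6.11%) in RS at adjusted p, 9.17% of the 360, and against DDR-Sen D16 it called 9 higher (2.5%) and 7 lower (1.94%), 4.44% in all. These counts rest on a spread estimated from the whole series. With only the 4 libraries of a comparison they were 0 and 1 against PMD-Sen D16 and 0 and 0 against DDR-Sen D16. At an unadjusted p below 0.05 those 4-library fits gave 28 and 24, and 18 and 11, and DESeq2 on the same 4 libraries called 0 and 2, and 1 and 2, at adjusted p.

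miR-181a-5p had 6276 and 6065 CPM in PMD-Sen D16, 5269.8 and 5643 CPM in DDR-Sen D16, compared with 10793 and 14386 CPM in RS. The log2 difference of RS was 1.03 (SE 0.18, adjusted p = 0.000430) from PMD-Sen D16 and 1.21 (SE 0.18, adjusted p = 5.54e-05) from DDR-Sen D16, and the adjusted p rose to 0.0690 and 0.280 when only 4 libraries entered each fit. miR-125a-5p had 23021 and 24074 CPM in PMD-Sen D16, 27868 and 23757 CPM in DDR-Sen D16, and the log2 difference of RS was 0.84 (SE 0.19, adjusted p = 0.00360) and 0.71 (SE 0.19, adjusted p = 0.0253). RS was thus higher than both groups in these miRNAs in the fit of all libraries. miR-93-5p, with 2416 and 2049 CPM in PMD-Sen D16, 1980.4 and 1540.3 CPM in DDR-Sen D16, was lower in RS, with log2 differences of -1.04 (SE 0.17, adjusted p = 0.000251) and -0.69 (SE 0.17, adjusted p = 0.0124). miR-15b-5p had 879 and 707 CPM in PMD-Sen D16, 614 and 468 CPM in DDR-Sen D16, and the log2 difference of RS was -1.58 (SE 0.29, adjusted p = 0.000533) and -1.02 (SE 0.29, adjusted p = 0.0385). Against DDR-Sen D16 the call of miR-15b-5p was lost under 10 of 14 alternatives, with any 1 of the 4 libraries left out among them, that of miR-125a-5p under 7 and that of miR-93-5p under 6, each with limma voom included. Against PMD-Sen D16 they were lost under 1, 4 and 2 of 14, and those of miR-181a-5p under 2 against PMD-Sen D16 and 1 against DDR-Sen D16.

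Other miRNAs passed against one late group. miR-155-5p had 2427 and 2234 CPM in PMD-Sen D16, 949 and 815 CPM in DDR-Sen D16, and RS differed from PMD-Sen D16 by -1.08 (SE 0.26, adjusted p = 0.00702) and from DDR-Sen D16 by 0.33 (SE 0.26, adjusted p = 0.537). miR-199b-5p had 169.8 and 55.0 CPM in PMD-Sen D16, 18.1 and 24.9 CPM in DDR-Sen D16, with log2 differences of -3.93 (SE 0.72, adjusted p = 0.000533) and -1.52 (SE 0.86, adjusted p = 0.406). Without PMD-Sen D16 replicate 1 neither miR-155-5p nor miR-199b-5p passed against PMD-Sen D16, with log2 differences that ranged from -1.88 to -0.67 and from -8.62 to -2.84 when 1 library was left out. Whether the 2 differences of a miRNA are themselves unequal was not tested. miR-374b-5p did not pass between RS and Ctrl (-0.09) but was lower in RS than in either late group, with 433 and 332 CPM in PMD-Sen D16, 731 and 600.4 CPM in DDR-Sen D16 and 143 and 224 CPM in RS. Its log2 differences were -1.06 (SE 0.28, adjusted p = 0.0131) and -1.84 (SE 0.28, adjusted p = 5.54e-05), and the call against PMD-Sen D16 was lost with limma voom, with only the 4 libraries, without PMD-Sen D16 replicate 1 and without RS replicate 1. The 14q32 miRNA miR-337-3p was called lower in RS than in DDR-Sen D16 (log2 difference -1.63, SE 0.29, adjusted p = 0.000525).

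The 1148 miRNAs below the filter were not tested. In 649 of them all 4 libraries had 0 counts, in 1007 no library had more than 3, and the highest count in any was 19. miR-217, often studied in aged endothelium, had 0 and 2 counts in Ctrl and 0 and 19 in RS, so nearly all its counts came from 1 library. miR-184 had 0 and 0 counts in Ctrl and 5 and 10 in RS, and the epithelial marker miR-200b-3p had 1 and 2 counts in Ctrl and 10 and 17 in RS. The 7 epithelial markers together held 17 and 10 counts in Ctrl and 36 and 31 in RS.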

How the data were processed

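Total RNA of WI-38 cells was converted to small RNA libraries, sequenced, trimmed, aligned to GRCh38 and miRBase and counted by the authors with the exceRpt pipeline. The deposited table gives expected counts per mature miRNA and library, without normalization, and the authors' counting splits reads that fit several miRNAs, so 1003 of 54288 values were not whole. Of the table's rows, 18 join miRNAs that share a sequence. Values were rounded before the tests.

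Libraries were grouped by the labels, and all 36 libraries entered 1 model with a coefficient for each of the 18 conditions in edgeR 4.0.16 (R 4.3.3), with TMM factors, filterByExpr and the quasi-likelihood test, and p-values were adjusted by Benjamini-Hochberg over the 360 tested miRNAs. These held at least 99.8% of each library. Standard errors (SE) come from this fit, which had 18 residual degrees of freedom, and the prior count was 2. Every adjusted p in the text comes from edgeR unless another tool is named. RS was contrasted with Ctrl, PMD-Sen D16 and DDR-Sen D16. The procedure was tested on simulated data.

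Total counts per library limit precision, and intervals and floors cover counting error only. A row with 0 counts was given an upper limit of 3 counts. Lists of families and clusters, the members of which were named, were drawn up from miRNA names. The 10 highest and 10 lowest log2 fold changes at adjusted p with separated groups and the 10 most abundant miRNAs of each group were also named, and further miRNAs called outside the lists or below the filter were named after their values were seen. The comparison and the lists were chosen with earlier results of these data known. Sequences and positions came from RefSeq (GRCh38.p14), where 329 of the 360 tested rows matched, and host genes from the GENCODE annotation of GRCh38. Hairpins on the same strand within 10000 nt of each other formed a cluster.

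Alternatives were scaling by DESeq2 size factors or by library totals, leaving the filter out or requiring 10 counts on average, the replicate number as a block, limma 3.58.1 voom with condition weights, DESeq2 1.42.0 on all libraries, edgeR or DESeq2 on only the 4 libraries of a comparison, thinning to the smallest total, and leaving out each library.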

Additional observations from a re-analysis of the deposited data

How the results depend on the processing

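The direction of all 81 calls between RS and Ctrl held when any 1 of the 4 libraries was left out. Since both RS libraries lay beyond both Ctrl libraries in all 81, this could hardly have come out otherwise. The counts of calls changed between settings. The count of higher miRNAs, 37, became 15 when only the 4 libraries were fitted in edgeR and 16 with DESeq2 on these 4, and leaving out libraries gave 20 to 42. The lowest counts came without Ctrl replicate 2 (20), Ctrl replicate 1 (23) and RS replicate 2 (24). The count of lower miRNAs, 44, became 27 with limma voom and 28 with DESeq2 on the 4 libraries. At the study's thresholds the 32 higher miRNAs became 19 with total counts, 21 with DESeq2 on the 4 libraries and 20 to 39 with a library left out, the lowest without RS replicate 2. Where fewer libraries entered, fewer degrees of freedom were left, and the fits of only the 4 libraries tested 296 miRNAs. The cause of the changes was not tested.

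The comparisons with the late groups moved more. Against PMD-Sen D16 the 11 higher miRNAs became 3 with voom, 0 with edgeR and 0 with DESeq2 on the 4 libraries, and the 22 lower ones became 3, 1 and 2, where unadjusted p gave 28 higher and 24 lower in edgeR and 22 and 22 in DESeq2. Leaving out a library gave 1 to 33 higher and 2 to 39 lower. The counts were 1 and 2 without PMD-Sen D16 replicate 1, 33 and 39 without RS replicate 2, and 4 and 8 without RS replicate 1, and 6 were higher without PMD-Sen D16 replicate 2.

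Against DDR-Sen D16 the 9 higher miRNAs became 3 without a filter, 5 with voom, and 0 with edgeR and 1 with DESeq2 on the 4 libraries. The 7 lower ones became 2, 2, 0 and 2, and unadjusted p on the 4 libraries gave 18 higher and 11 lower in edgeR and 14 and 8 in DESeq2. Leaving out a library gave 1 to 9 higher and 2 to 14 lower. The counts were 1 and 2 without DDR-Sen D16 replicate 1, 2 and 3 without DDR-Sen D16 replicate 2 and 1 and 3 without RS replicate 1, and 14 were lower without RS replicate 2.

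With the replicate number as a block, 41 miRNAs were higher and 44 lower in RS than in Ctrl, 14 and 23 against PMD-Sen D16, and 9 and 7 against DDR-Sen D16. The labels do not say that replicate numbers mark a shared culture, and with 2 pairs the correlation of deviations between Ctrl and RS replicate 1 (r = 0.149 over 360 miRNAs, which are not independent) does not show it. For the miRNAs of the family and cluster lists and those named by size or abundance, 2775 values under the alternatives kept their call status, 168 lost a call and 39 gained one. The kept values include those of miRNAs without a call in the main fit, so they do not measure how stable the calls were.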
